A study of Mus musculus with 12 samples.

Results

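The genes described here are 38 markers of lung cell types other than the mesenchyme that was sorted: 8 endothelial, 11 alveolar epithelial, 3 airway epithelial, 8 immune, 5 erythroid and 3 mesothelial genes. They were taken by symbol from a table of 28004 genes in 12 bulk RNA-seq libraries, and all 38 were found. The cells came from dissociated whole mouse lung and were sorted for 2 reporters that every group carried, Acta2-dsRed and Pdgfra-GFP, in which the smooth muscle actin and platelet-derived growth factor receptor alpha genes drive the fluorescent proteins. The groups were the embryonic stage E17.5 and the postnatal stages P3, P7 and P10 (days after birth), each with 3 libraries. Nothing in the labels ties the 3 libraries to different animals. The p-values therefore set a stage difference against the spread between these libraries, and that spread may be technical.

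A reporter sort sets a gate on fluorescence, and dissociated lung also holds endothelium, epithelium, blood cells and pleura. A sorted library can hold some RNA of such cells, and some marker genes are also transcribed by mesenchyme. How much came from each was not tested. Surfactant protein and secretoglobin genes are made in very large amounts by alveolar type II and club cells, so few cells of that kind can be seen in a bulk library. In a bulk library fewer cells of a type and less RNA per cell cannot be told apart.

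Estimated counts, as deposited, summed to between 13328623 and 18740591 per library. Levels are CPM, estimated counts relative to the TMM-scaled library size, for replicates 1, 2 and 3 in that order where 3 values are given, and folds are later over earlier stage. The deposited values look adjusted for transcript length: among genes at 0 in at least 6 libraries, the median of the smallest value above 0 was 54 for transcripts up to 120 nt and 1 for those over 1500 nt. A value is therefore no read number, and limits from a count of 0 are not given. The sorted identity was present in all libraries: Acta2 lay between 347 and 1075 CPM and Pdgfra between 165 and 409 CPM. Acta2 rose at P3 against E17.5 (log2 fold change 1.06, SE 0.28, adjusted p = 0.0183) and Pdgfra fell (log2 fold change -0.95, SE 0.19, adjusted p = 0.00430).

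The 38 markers together summed to between 200.4 and 553 CPM per library, where 12 mesenchymal genes summed to between 5720.3 and 9693 CPM, 32.0% of it Col3a1 on average. Single markers were not all below single mesenchymal genes: in P3 replicate 3 Sftpc had 174 CPM where Pdgfra had 165 CPM. The levels depend on which rows count toward library size, since 1 noncoding RNA, Rn7s1, took 11.9% to 25.6% of a library. With rows over 1% of a library left out, the mean endothelial sum at E17.5 was 108.5 CPM, where it was 59.0 CPM with all rows, and the other class sums moved alike. On this scale Sftpc, the highest marker, stood at 0.0555 to 0.405 of the level of Acta2. P10 replicate 1 stood apart from the other P10 libraries, with the lowest sum of all 12 libraries for all 38 markers together and for the endothelial and alveolar epithelial classes. Calls of the 38 markers at P10 are therefore given with and without it. Those of other genes are given with all libraries only.

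Endothelial markers summed to 48.7, 58.2 and 70.0 CPM at E17.5, 57.5, 54.7 and 73.2 at P3, 54.2, 78.9 and 68.7 at P7 and 41.6, 111 and 106 at P10. Alveolar epithelial markers summed to 124, 133 and 167 CPM at E17.5, 164, 161 and 242 at P3, 124, 156 and 113 at P7 and 56.0, 198 and 149 at P10. The stages overlapped in both classes, and the 3 P10 libraries spanned the lowest and the highest endothelial value. Airway epithelial markers summed to 11.96, 14.5 and 17.3 CPM at E17.5, 84.4, 115 and 128 at P3, 114, 137 and 175 at P7 and 70.6, 194 and 231 at P10. Immune markers summed to 12.4, 11.8 and 10.7 CPM at E17.5, 20.8, 21.1 and 19.7 at P3, 16.6, 24.1 and 19.8 at P7 and 19.3, 26.3 and 24.9 at P10. In these 2 classes every postnatal library lay above every E17.5 library. Tppp3 made up 67.1% of the airway sum and Lyz2 55.0% of the immune sum on average. Without Tppp3 the mean airway sum was 1.96 CPM at E17.5, 30.1 at P3 and 68.8 at P10. Without Lyz2 the mean immune sum was 5.82 CPM at E17.5, 6.65 at P3 and 12.5 at P10. Erythroid markers summed to 89.4, 82.0 and 58.0 CPM at E17.5, 15.0, 21.4 and 24.1 at P3, 5.38, 22.8 and 14.0 at P7 and 12.9, 23.4 and 23.2 at P10. Mesothelial markers summed to 0.883, 1.36 and 1.25 CPM at E17.5, 0.750, 0.911 and 0.743 at P3, 0.449, 0.451 and 0.684 at P7 and 0.0594, 0.0647 and 0.203 at P10. For the erythroid class every postnatal library lay below every E17.5 library, and the mesothelial sum was below 1.5 CPM throughout.

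**Figure D1:**
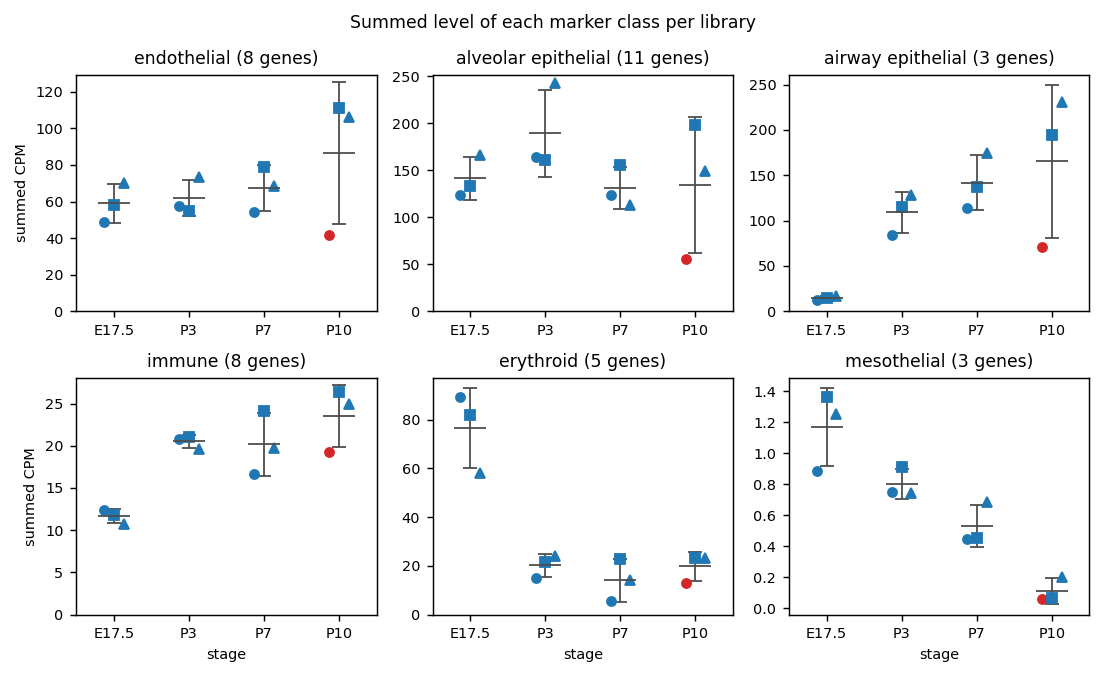
Summed CPM of the members of each marker class (y axis, linear from 0) by stage (x axis). Circles, squares and triangles are replicates 1, 2 and 3, horizontal lines and bars are the mean and SD of 3 libraries, and P10 replicate 1 is red; its endothelial and alveolar epithelial sums, 41.6 and 56.0 CPM, are the lowest of the 12 libraries.

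The low-count filter kept 32 of the 38 genes. Foxj1, C1qa, C1qb, Slc4a1, Wt1 and Upk3b were too low to test. With edgeR's quasi-likelihood test and Benjamini-Hochberg adjustment over all 16827 genes at 0.05, 5 of the 32 tested markers rose (15.6%) and 4 fell (12.5%) in P3 against E17.5, where 13.1% of all genes tested rose and 12% fell. In P10 against E17.5, 6 rose and 6 fell (18.8% each), where 8.79% of all genes rose and 9.5% fell. These 2 comparisons share the E17.5 libraries. In P7 against P3, 0 markers passed by this test, by DESeq2 or by limma-voom, where by this test 0% of all genes rose and 0.00594% fell. An unadjusted p under 0.05 was found for 3 of the 32 tested markers and for 14.3% of all genes. In P10 against P7, 0 rose and 1 fell, where 1.4% rose and 2.25% fell. Across the 4 stages 14 of the 32 tested markers differed (43.75%), where 32.1% of all genes did. The median log2 fold change of the tested markers was -0.07 for P3 against E17.5 and 0.18 for P10 against E17.5, beside -0.05 and 0.00498 over all tested genes. A gene high in 1 stage alone can pass the filter because of that stage, so these shares are a description of the tested members and not of all 38.

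**Figure D2:**
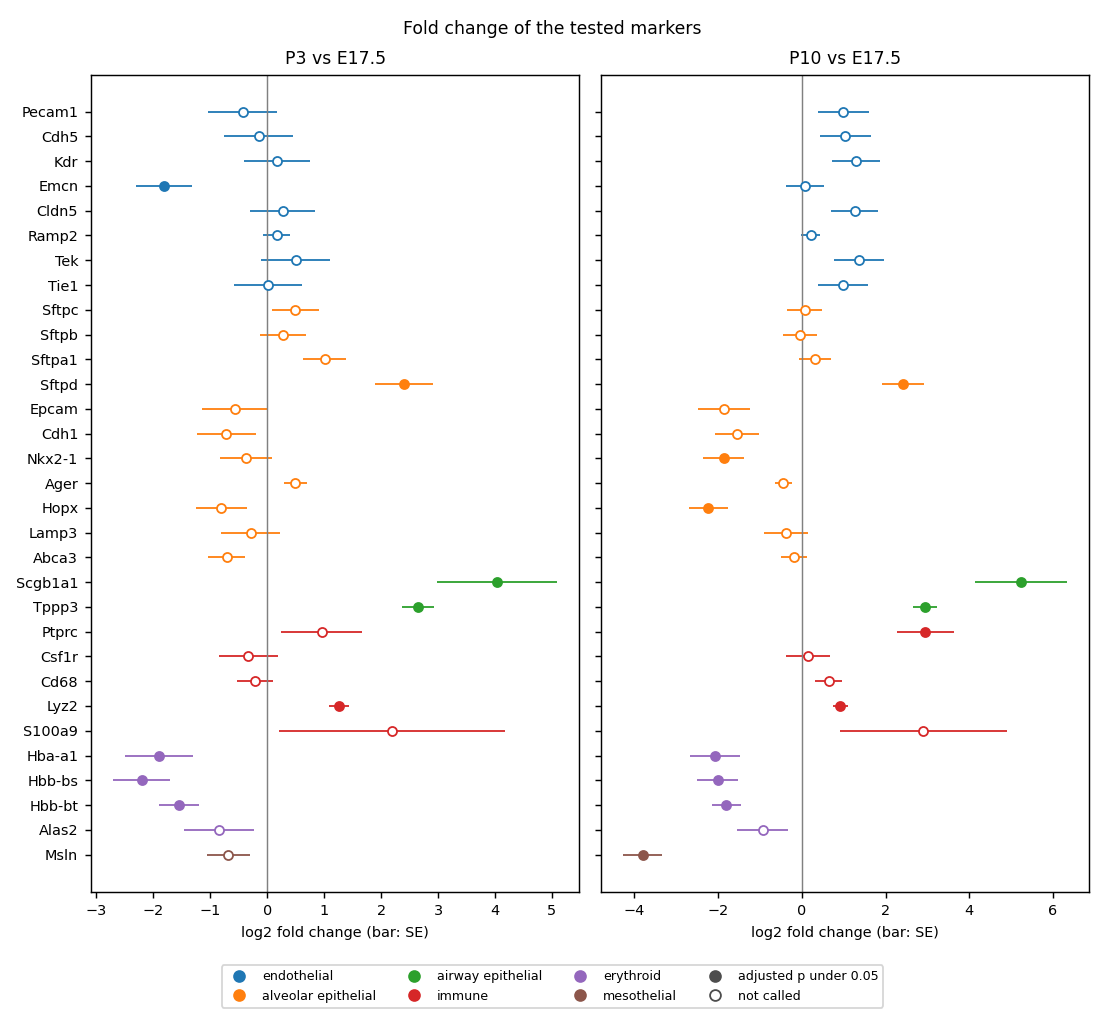
Log2 fold change (x axis) with its SE for the tested markers other than S100a8 (rows), in P3 vs E17.5 on the left and P10 vs E17.5 on the right, coloured by class; filled points had adjusted p under 0.05. S100a8 was at 0 at E17.5; Scgb1a1 lies farthest right in both panels, and the globin points and, at P10, Msln lie left of 0.

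Endothelial cells line the vessels of the alveolar wall, and the 8 markers cover their junctions and receptors. At P3 against E17.5 1 of 8 fell and 0 rose, where 12% of all genes fell and 13.1% rose. Over the 4 stages 1 of 8 differed, where 32.1% of all genes did. Emcn, which encodes the sialomucin endomucin (chromosome 3, 137341067 to 137432185, plus strand), had 1.97, 1.65 and 2.50 CPM at E17.5, 0.682, 0.513 and 0.540 at P3, 0.498, 0.845 and 0.999 at P7 and 0.772, 2.91 and 2.80 at P10. All 3 P3 libraries lay below all 3 E17.5 libraries, while at P10 replicate 1 was low and the other two were the highest of the 12. Emcn fell at P3, with 0.578 ± 0.0908 CPM against 2.04 ± 0.429 CPM at E17.5 (SD, n = 3; log2 fold change -1.82, SE 0.49, adjusted p = 0.0202). Leaving out a library ended the call in 3 cases: E17.5 replicate 3 (adjusted p = 0.0592), P3 replicate 2 (0.0751) and P3 replicate 3 (0.0609). The call also ended under limma-voom (adjusted p = 0.0852) and with library totals in place of TMM (0.0929). In P10 against P7 Emcn did not pass (1.46, adjusted p = 0.115), but DESeq2 gave adjusted p = 0.0426.

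Ramp2, a partner of the adrenomedullin receptor, was the highest endothelial marker (chromosome 11, 101246028 to 101259546, plus strand), with 26.7, 41.4 and 49.1 CPM at E17.5, 44.7, 39.3 and 47.2 at P3, 39.6, 47.5 and 45.6 at P7 and 31.8, 54.3 and 49.8 at P10. Its stages overlapped and it did not pass in any of the 4 comparisons. It made up 62.8% of the endothelial sum, and the other 7 members lay at or below 17.4 CPM in every library. Pecam1, a platelet and endothelial adhesion molecule (chromosome 11, 106654217 to 106750628, minus strand), had 5.91, 4.48 and 4.17 CPM at E17.5, 2.93, 3.53 and 4.32 at P3, 2.79, 6.54 and 5.21 at P7 and 1.72, 12.1 and 15.1 at P10. Cdh5, the vascular endothelial cadherin (chromosome 8, 104101625 to 104144511, plus strand), had 6.46, 4.18 and 6.68 CPM at E17.5, 3.14, 3.93 and 8.65 at P3, 4.09, 8.90 and 6.21 at P7 and 2.91, 17.4 and 15.5 at P10. For both, P10 replicate 1 was the lowest of the 12 libraries and P10 replicates 2 and 3 the highest. Kdr, a receptor for vascular endothelial growth factor, lay between 1.01 and 6.53 CPM. Cldn5, a tight junction claudin, lay between 1.84 and 11.3 CPM. The angiopoietin receptor gene Tek lay between 0.584 and 4.07 CPM and its relative Tie1 between 0.534 and 3.43 CPM.

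In P10 against E17.5 no endothelial marker passed, with 8 of 8 estimates positive, a median log2 fold change of 1.02 and 3 at an unadjusted p under 0.05, as 31.6% of all genes had. Without P10 replicate 1 the 6 genes Pecam1, Cdh5, Kdr, Cldn5, Tek and Tie1 passed as higher. That library was set apart after its low sums over all markers and over the endothelial and alveolar epithelial classes were seen. Leaving it out therefore raises markers that are low in it at P10 by choice. Counts and adjusted p-values of markers that rose without it are a description and no test of a rise. On the log2 scale Pecam1 without that library changed by 1.48 (SE 0.32, adjusted p = 0.0137), where it had 0.99 (adjusted p = 0.295) with all libraries. Kdr then had 1.76 (SE 0.37, adjusted p = 0.0115), where it had 1.29 (adjusted p = 0.156). In all, 12 of 33 markers tested without that library rose (36.4%) and 3 fell (9.09%), where 7.61% of 17719 genes rose and 7.97% fell. The 6 markers that rose at P10 with all libraries also rose without it, Sftpd by 2.80 (SE 0.37, adjusted p = 0.00109), Scgb1a1 by 5.76 (SE 0.79, adjusted p = 0.00223), Tppp3 by 3.16 (SE 0.24, adjusted p = 5.41e-05), Lyz2 by 1.04 (SE 0.17, adjusted p = 0.00387) and Ptprc by 3.07 (SE 0.78, adjusted p = 0.0274) on the log2 scale, besides S100a8. Replicate 1 was the lowest P10 library for each of these 6 markers too, so their values without it are no further support. In P10 against P7 without it, 2 of 33 tested markers rose (6.06%) and 1 fell (3.03%), where 1.46% of genes rose and 3% fell. Those that rose were Pecam1 with 1.47 (SE 0.32, adjusted p = 0.0367) and Emcn with 1.84 (SE 0.34, adjusted p = 0.0196). The endothelial calls at P10 thus rested on which P10 libraries were in the fit.

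Within P10, replicate 1 was the lowest in the sum of every class. Its erythroid sum was 12.9 CPM, where replicates 2 and 3 had 23.4 and 23.2 CPM. Of 26 members at 1 CPM or more on average at P10, 15 were at least 2-fold higher in both replicates 2 and 3 than in replicate 1, where 5.19% of 14040 genes were and 2.5% were as far below it. These were 7 of 8 endothelial, 6 of 8 alveolar epithelial, 1 of 2 airway epithelial, 1 of 4 immune and 0 of 4 erythroid members. The 4 erythroid members were still higher in both replicates 2 and 3 than in replicate 1, by 1.44 to 3.34 times. This comparison of single libraries was made after their values were seen and has no test. Scgb1a1 stood 11.4 and 14.3 times and Pecam1 7.03 and 8.80 times its level in replicate 1. Sftpc stood 3.93 and 2.93 times that level and Lyz2 1.43 and 1.22 times. Acta2 had 676 CPM in P10 replicate 1 and 364 and 420.4 CPM in replicates 2 and 3. Of the other sort gene and the most abundant collagen it had less: Pdgfra had 177 CPM in replicate 1 and 248.6 and 236 CPM in replicates 2 and 3, and Col3a1 3692 CPM against 4114 and 3983 CPM. The 12 mesenchymal genes together summed to 9693 CPM in replicate 1, the highest of all libraries. In replicates 2 and 3 they summed to 8650 and 8354 CPM. The part of the difference between P10 libraries in the results at P10 was not tested beyond leaving replicate 1 out.

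**Figure D3:**
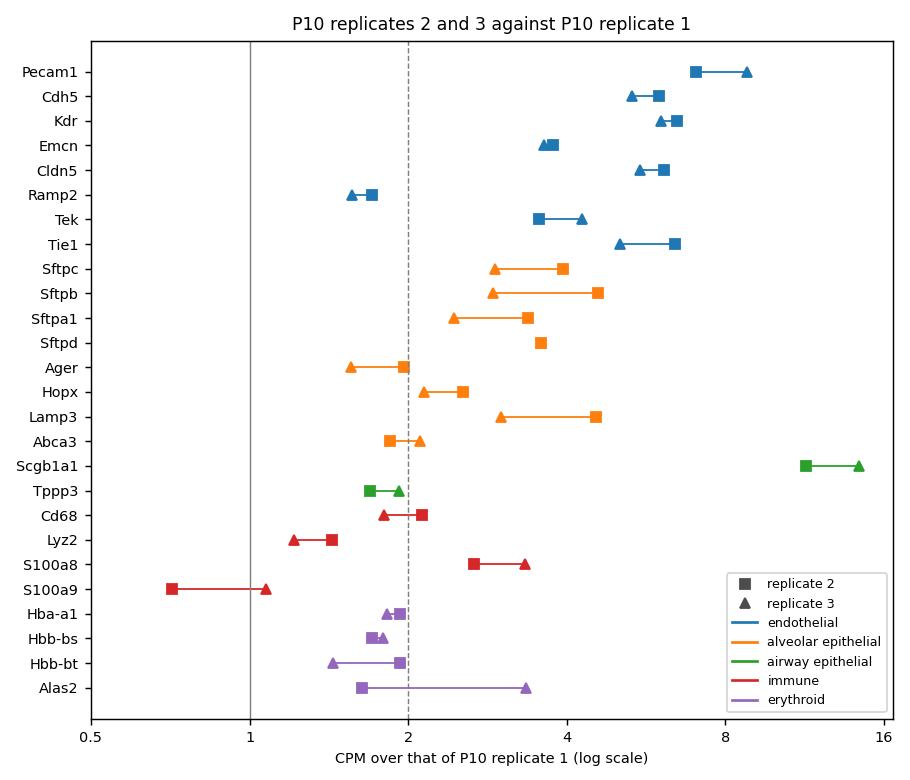
Level of each marker at 1 CPM or more in P10 replicate 2 (square) and replicate 3 (triangle) divided by its level in P10 replicate 1 (x axis, log scale; rows are genes, coloured by class). The dashed line marks 2-fold; 7 of 8 endothelial markers lie right of it with both points, and 0 of 4 erythroid markers do.

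The alveolar epithelium consists of type II cells, which make surfactant, and flat type I cells, which carry gas exchange. Its 11 markers moved in both directions. In P3 against E17.5 1 of 11 rose and 0 fell, where 13.1% of all genes rose and 12% fell. In P10 against E17.5 1 of 11 rose and 2 fell, where 8.79% of all genes rose and 9.5% fell. Sftpc, the hydrophobic surfactant protein of type II cells (chromosome 14, 70520949 to 70524081, minus strand), had 76.2, 90.1 and 115 CPM at E17.5, 112, 109 and 174 at P3, 84.6, 108 and 74.3 at P7 and 37.5, 147 and 109.6 at P10. The stages overlapped and Sftpc passed in none of the comparisons (P3 against E17.5, log2 fold change 0.49, SE 0.41, adjusted p = 0.430). Sftpb, the other hydrophobic surfactant protein, lay between 3.21 and 14.7 CPM, and Sftpa1, a surfactant collectin, between 2.43 and 12.3 CPM. Neither passed by the main test, and Sftpa1 in P3 against E17.5 (1.01, adjusted p = 0.0776) passed under DESeq2 (0.0249), in the fit on the 6 libraries compared (0.0464) and without P10 replicate 1 (0.0153).

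Sftpd, the second surfactant collectin and a lectin of innate defence (chromosome 14, 41172214 to 41185149, minus strand), had 0.204, 0.487 and 0.313 CPM at E17.5, 1.43, 1.88 and 1.96 at P3, 1.59, 2.08 and 1.37 at P7 and 0.653, 2.33 and 2.34 at P10. Every postnatal library lay above every E17.5 library, and P10 replicate 1 was the lowest of the postnatal ones. Sftpd rose at P3, with 1.76 ± 0.284 CPM against 0.334 ± 0.143 CPM at E17.5 (SD, n = 3; log2 fold change 2.40, SE 0.51, adjusted p = 0.00659), and at P10 (log2 fold change 2.42, SE 0.51, adjusted p = 0.00821). Estimated counts of Sftpd at E17.5 were only 3, 5 and 6. limma-voom gave it adjusted p = 0.0692 at P3 and 0.107 at P10, and the fit on the 6 libraries compared gave 0.0578 at P10.

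Sftpd was also higher relative to Sftpc in the same library after birth. The ratio of Sftpd to Sftpc was 0.00267, 0.00540 and 0.00273 at E17.5, 0.0128, 0.0172 and 0.0113 at P3, 0.0189, 0.0194 and 0.0184 at P7 and 0.0174, 0.0158 and 0.0213 at P10. The 9 postnatal ratios lay above the 3 embryonic ones, and P10 replicate 1, low in both genes, had a ratio between those of replicates 2 and 3.

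Nkx2-1, the transcription factor that sets lung epithelial identity (chromosome 12, 56531958 to 56536908, minus strand), had 1.02, 1.27 and 2.03 CPM at E17.5, 1.36, 0.968 and 1.01 at P3, 0.399, 0.507 and 0.316 at P7 and 0.178, 0.647 and 0.356 at P10. The P10 libraries all lay below the E17.5 libraries, and so did those of P7. Nkx2-1 fell at P10, with 0.394 ± 0.237 CPM against 1.44 ± 0.529 CPM at E17.5 (SD, n = 3; log2 fold change -1.87, SE 0.48, adjusted p = 0.0222). The call ended without P10 replicate 1 (-1.53, adjusted p = 0.0559), P10 replicate 3 (0.0826) or E17.5 replicate 3 (0.0833). It also ended with library totals (-1.43, adjusted p = 0.121) and in the fit on the 6 libraries compared (0.0816).

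Hopx, a homeodomain protein of type I cells (chromosome 5, 77086988 to 77115121, minus strand), had 9.11, 2.34 and 7.56 CPM at E17.5, 3.61, 2.79 and 4.53 at P3, 2.19, 2.31 and 2.26 at P7 and 0.712, 1.81 and 1.53 at P10. E17.5 replicate 2 stood far below the other E17.5 libraries, yet all P10 libraries were lower than it. Hopx fell at P10, with 1.35 ± 0.570 CPM against 6.33 ± 3.55 CPM at E17.5 (SD, n = 3; log2 fold change -2.23, SE 0.47, adjusted p = 0.00843), and without P10 replicate 1 it had -1.93 (SE 0.49, adjusted p = 0.0265). The fit on the 6 libraries compared gave adjusted p = 0.0573. Ager, the receptor that is the usual type I cell marker (chromosome 17, 34597862 to 34600936, plus strand), had 18.8, 18.98 and 17.6 CPM at E17.5, 26.2, 22.0 and 29.7 at P3, 16.1, 18.99 and 17.3 at P7 and 9.02, 17.7 and 14.1 at P10. It differed across the 4 stages (adjusted p = 0.0269) but passed in none of the 4 pairwise comparisons by the main test. In P3 against E17.5 (0.49, adjusted p = 0.106) it passed under DESeq2 (adjusted p = 0.0446), in the fit on the 6 libraries compared (0.0497) and without P10 replicate 1 (0.0193). The 2 type I markers therefore did not keep 1 ratio: Hopx stood at 0.0789, 0.102 and 0.108 of Ager at P10 and at 0.484, 0.123 and 0.430 at E17.5.

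The remaining alveolar epithelial genes were low. Epcam and Cdh1, adhesion molecules of epithelia, reached 1.77 and 3.13 CPM. Their estimates at P10 against E17.5 were -1.86 (SE 0.62, adjusted p = 0.0602) and -1.54 (SE 0.53, adjusted p = 0.0693), which did not pass. Lamp3 and Abca3, a membrane protein and a lipid transporter of the lamellar bodies that store surfactant, reached 1.62 and 3.65 CPM, and neither passed.

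**Figure D4:**
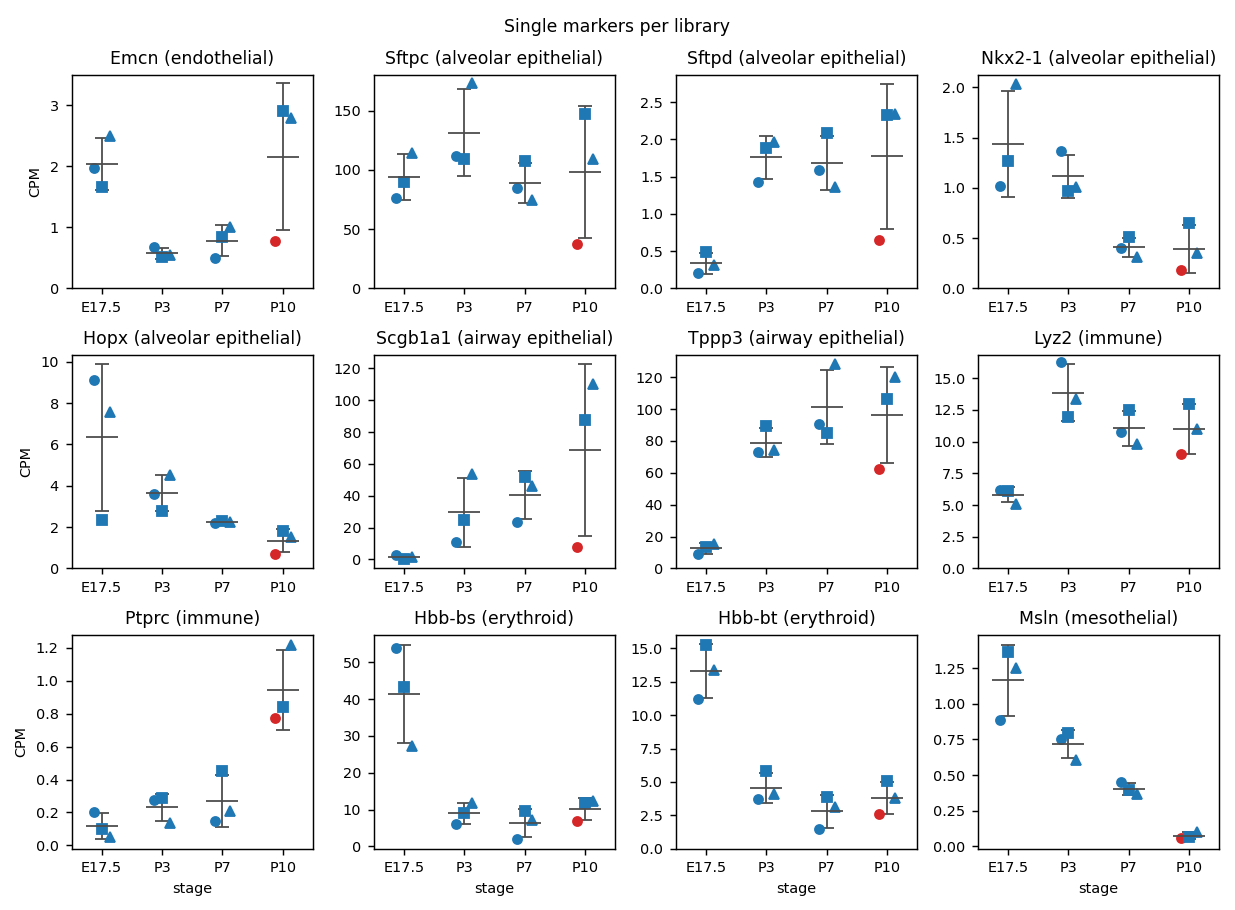
CPM of 12 markers (y axes, linear) in each library by stage (x axes). Symbols are replicates 1 (circle), 2 (square) and 3 (triangle), lines and bars the mean and SD of 3 libraries, P10 replicate 1 in red; Tppp3 and Lyz2 lie above, and Hbb-bt below, all E17.5 libraries at every later stage.

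Airway epithelium holds secretory club cells and ciliated cells. Both tested members, Scgb1a1 and Tppp3, rose at P3 and at P10 against E17.5, where 13.1% and 8.79% of all genes rose. Neither passed between postnatal stages. Scgb1a1, the secretoglobin of club cells (chromosome 19, 9083636 to 9087958, minus strand), had 2.92, 0.487 and 1.83 CPM at E17.5, 10.9, 24.7 and 53.5 at P3, 23.4, 51.7 and 46.0 at P7 and 7.72, 87.6 and 110.5 at P10. Every postnatal library lay above every E17.5 library, and replicate 1 was the lowest within each postnatal stage. It rose at P3, with 29.7 ± 21.7 CPM against 1.74 ± 1.22 CPM at E17.5 (SD, n = 3; log2 fold change 4.03, SE 1.06, adjusted p = 0.0223), and at P10 (log2 fold change 5.24, SE 1.10, adjusted p = 0.0104). Dropping any of 3 libraries ended the P3 call, namely E17.5 replicate 2 (adjusted p = 0.0731) or 3 (0.0653) and P3 replicate 3 (0.0600), as did library totals (0.0751). limma-voom gave adjusted p = 0.207 at P3 and 0.1497 at P10, and the fit on the 6 libraries compared gave 0.0521 at P10.

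Tppp3, a tubulin-binding protein of ciliated cells that in mouse also marks some connective tissue cells (chromosome 8, 105467493 to 105471526, minus strand), had 8.83, 13.7 and 15.3 CPM at E17.5, 73.2, 89.4 and 74.2 at P3, 90.4, 85.3 and 128 at P7 and 62.6, 106 and 120.2 at P10. The E17.5 libraries stood far below all others, and the spread within stages was small beside that step. Tppp3 rose at P3, with 78.9 ± 9.11 CPM against 12.6 ± 3.36 CPM at E17.5 (SD, n = 3; log2 fold change 2.64, SE 0.28, adjusted p = 0.000158), and at P10 (log2 fold change 2.93, SE 0.29, adjusted p = 7.38e-05). Each alternative that was run kept these calls.

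Foxj1, the transcription factor that defines multiciliated cells (chromosome 11, 116330704 to 116335399, minus strand), lay between 0.129 and 0.676 CPM and did not follow Tppp3. Its estimated counts were 3, 3 and 3 at E17.5, 4, 6 and 10 at P3, 6, 5 and 5 at P7 and 4, 2 and 6 at P10. Tppp3 was 109.8 to 820.5 times as high as Foxj1 in the postnatal libraries and 43.3 to 97.7 times as high at E17.5.

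Immune markers were low, and the members that rose were of different cell kinds. In P3 against E17.5 2 of 6 tested rose, where 13.1% of all genes did, and in P10 against E17.5 3 of 6, where 8.79% did. Of these 6, 0 fell, where 12% and 9.5% of all genes did. C1qa and C1qb were not tested. Their means were 0.495 and 0.340 CPM at E17.5, 0.192 and 0.0640 at P3 and 0.432 and 0.257 at P10. Lyz2, the lysozyme of macrophages that in mouse is also made by type II cells (chromosome 10, 117277331 to 117282321, minus strand), was the highest with 6.18, 6.13 and 5.11 CPM at E17.5, 16.3, 11.9 and 13.4 at P3, 10.8, 12.5 and 9.83 at P7 and 9.02, 12.9 and 10.98 at P10. All postnatal libraries lay above all E17.5 libraries. Lyz2 rose at P3, with 13.9 ± 2.24 CPM against 5.81 ± 0.605 CPM at E17.5 (SD, n = 3; log2 fold change 1.26, SE 0.18, adjusted p = 0.000719), and at P10 (log2 fold change 0.92, SE 0.18, adjusted p = 0.00465). Each alternative that was run kept both calls.

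Ptprc, the pan-leukocyte phosphatase CD45 (chromosome 1, 138062861 to 138175708, minus strand), had 0.204, 0.0973 and 0.0522 CPM at E17.5, 0.273, 0.285 and 0.135 at P3, 0.1495, 0.451 and 0.210 at P7 and 0.772, 0.841 and 1.22 at P10. The 3 P10 libraries lay above all 9 others. Ptprc rose at P10 against E17.5 (log2 fold change 2.95, SE 0.68, adjusted p = 0.0124), on estimated counts of 13, 13 and 24 at P10 against 3, 1 and 1 at E17.5, and it did not pass when E17.5 replicate 2 (adjusted p = 0.0514), E17.5 replicate 3 (0.0511) or P10 replicate 3 (0.0654) was left out. S100a8, a calcium-binding protein of neutrophils (chromosome 3, 90668978 to 90670035, plus strand), had 0, 0 and 0 CPM at E17.5, 0.750, 0.968 and 0 at P3, 0.797, 1.01 and 0.473 at P7 and 0.534, 1.42 and 1.78 at P10. The E17.5 libraries and P3 replicate 3 were at 0, and the smallest estimated count above 0 was 9, in a gene with a median transcript of 492 nt. It passed at P3 (adjusted p = 0.0299) and at P10 (adjusted p = 0.0171), and no fold is given against values of 0. At P3 the call ended under limma-voom (adjusted p = 0.329), with the replicate block (0.0661), without each E17.5 library (0.0606 to 0.0663) and without P3 replicate 1 (0.0666) or 2 (0.0783). At P10 limma-voom gave adjusted p = 0.113.

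Its partner S100a9 was listed at 0 in 5 of 12 libraries and reached 3.51 CPM, and it did not pass. Csf1r, the macrophage growth factor receptor, lay between 0.389 and 1.16 CPM, and the complement genes C1qa and C1qb of tissue macrophages reached 0.680 and 0.475 CPM. Cd68, a lysosomal protein of macrophages, lay between 2.57 and 8.31 CPM. Csf1r and Cd68 did not pass.

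The globin genes fell at P3 and stayed low. Erythroid cells of the fetus and the newborn carry alpha and beta globin messenger RNA in very large amounts. Of the 4 erythroid markers tested, 3 fell both at P3 and at P10 against E17.5, with none rising. Of all genes, 12% fell at P3 and 9.5% at P10. Hbb-bs, a beta globin (chromosome 7, 103826534 to 103828096, minus strand), had 53.8, 43.2 and 27.1 CPM at E17.5, 6.07, 9.11 and 11.7 at P3, 2.04, 9.47 and 7.15 at P7 and 6.83, 11.6 and 12.3 at P10. All 9 postnatal libraries lay below the 3 embryonic ones. Hbb-bs fell at P3, with 8.96 ± 2.81 CPM against 41.4 ± 13.4 CPM at E17.5 (SD, n = 3; log2 fold change -2.21, SE 0.50, adjusted p = 0.0102), and at P10 (log2 fold change -2.01, SE 0.50, adjusted p = 0.0194). Without P10 replicate 1 the P10 value was -1.79 (SE 0.57, adjusted p = 0.0659), which did not pass, and nor did it pass without E17.5 replicate 1 (adjusted p = 0.0597) or P10 replicate 2 (0.0568) or 3 (0.0524). With library totals it was -1.44 (adjusted p = 0.0881).

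Hbb-bt, the neighbouring beta globin (chromosome 7, 103812524 to 103813996, minus strand), had 11.2, 15.3 and 13.4 CPM at E17.5, 3.68, 5.81 and 4.12 at P3, 1.45, 3.83 and 3.10 at P7 and 2.61, 5.05 and 3.76 at P10. Its groups did not overlap either, and it fell at P3 (log2 fold change -1.55, SE 0.35, adjusted p = 0.00863) and at P10 (log2 fold change -1.80, SE 0.35, adjusted p = 0.00516), with -1.60 (SE 0.38, adjusted p = 0.0200) at P10 without P10 replicate 1. Both calls of Hbb-bt ended with library totals, at adjusted p = 0.0629 for P3 and 0.0538 for P10. Hba-a1, an alpha globin (chromosome 11, 32283511 to 32284465, plus strand), had 21.7, 19.2 and 16.6 CPM at E17.5, 4.64, 5.41 and 5.34 at P3, 0.897, 8.45 and 2.79 at P7 and 2.85, 5.50 and 5.19 at P10. It fell at P3 (log2 fold change -1.90, SE 0.59, adjusted p = 0.0402) and at P10 (log2 fold change -2.08, SE 0.60, adjusted p = 0.0355). Its P3 call ended without 9 of the 12 single libraries, with log2 fold changes between -1.97 and -1.80, and its P10 call without 9 of 12, among them P10 replicate 1 with -1.85 (SE 0.69, adjusted p = 0.108). The Hba-a1 calls also ended with library totals (adjusted p = 0.145 for P3 and 0.125 for P10) and with no filter on low counts (0.0695 for P3 and 0.0594 for P10).

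The globin genes have close copies, so their separate values are uncertain. In GENCODE release M21, 580 of the 628 nt of the longest Hbb-bs transcript were identical to Hbb-bt in alignment, and 537 of the 554 nt of Hba-a2 were identical to Hba-a1. Hba-a2, not among the 38, had 83.7, 98.2 and 59.0 CPM at E17.5, 16.8, 32.2 and 28.8 at P3, 7.13, 21.5 and 22.7 at P7 and 14.1, 30.5 and 25.3 at P10 and fell at P3 (log2 fold change -1.63, SE 0.45, adjusted p = 0.0260). Alas2, which makes heme in red cell precursors, lay between 0.594 and 3.503 CPM and did not pass. Slc4a1, the red cell anion exchanger, was listed at 0 in 5 libraries and reached 0.876 CPM.

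The 3 globin genes moved together, with correlations of 0.961 for Hba-a1, 0.968 for Hbb-bs and 0.943 for Hbb-bt between each gene and the rest of its class over 12 libraries, so the stretches before their starts are shown. Each is the 150 bases upstream of the RefSeq start on GRCm38.p6, 5′ to 3′ on the gene's strand, with 3 elements in capitals: the CACCC element, the CCAAT box and the element TATAA. These elements bind Krüppel-like factors, the CCAAT-binding factor and the TATA-binding protein and are known from globin promoters. GENCODE places the outermost start of these genes further upstream.
Hba-a1 (chr11:32283522-32283671, plus strand): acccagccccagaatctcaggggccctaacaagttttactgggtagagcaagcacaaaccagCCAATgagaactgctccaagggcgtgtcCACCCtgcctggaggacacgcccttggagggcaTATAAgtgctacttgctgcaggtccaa
Hbb-bs (chr7:103827929-103828078, minus strand): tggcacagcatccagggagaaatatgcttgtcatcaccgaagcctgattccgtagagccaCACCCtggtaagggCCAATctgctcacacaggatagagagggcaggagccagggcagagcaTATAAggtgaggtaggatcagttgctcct
Hbb-bt (chr7:103813924-103814073, minus strand): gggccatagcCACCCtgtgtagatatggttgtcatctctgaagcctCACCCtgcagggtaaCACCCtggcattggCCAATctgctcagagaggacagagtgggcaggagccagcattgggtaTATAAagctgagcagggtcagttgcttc
On the strand shown, CACCC lay 60 bases before the start in Hba-a1, 90 in Hbb-bs and 140, 104 and 89 in Hbb-bt, counted to the first base of the element. In the same order of genes, CCAAT lay 88, 76 and 75 bases before the start, and TATAA 27, 29 and 28 bases. On the opposite strand only CCAAT matched, 80 and 36 bases before the start of Hbb-bt. Of 32851 such windows, 37.4% held CACCC, 24.5% CCAAT and 14.2% TATAA on either strand, and 0.256% held all 3 on the strand shown. A match is a description of the sequence and not a site.

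Mesothelial cells cover the lung surface, and their defining markers were almost absent. Wt1, a transcription factor of the mesothelium, was listed at 0 in 9 of 12 libraries and Upk3b, a uroplakin, in 7, and neither exceeded 0.263 CPM. Msln, the surface protein mesothelin (chromosome 17, 25748613 to 25754378, minus strand), had 0.883, 1.36 and 1.25 CPM at E17.5, 0.750, 0.798 and 0.608 at P3, 0.449, 0.394 and 0.368 at P7 and 0.0594, 0.0647 and 0.102 at P10. Each stage lay below the stage before it without overlap. Msln fell at P10 against E17.5, with 0.0752 ± 0.0230 CPM against 1.17 ± 0.251 CPM at E17.5 (SD, n = 3; log2 fold change -3.81, SE 0.46, adjusted p = 0.000269), and without P10 replicate 1 it had -3.68 (SE 0.53, adjusted p = 0.00172). It also fell at P10 against P7 (log2 fold change -2.30, SE 0.46, adjusted p = 0.0284), with -2.19 (SE 0.52, adjusted p = 0.0470) without P10 replicate 1. These values rest on estimated counts of 1, 1 and 2 at P10, 9, 7 and 7 at P7 and 13, 14 and 24 at E17.5. The P10 against P7 call ended under DESeq2 (adjusted p = 0.0506), under limma-voom (0.124), with the replicate block (0.0642), with library totals (0.253), with no filter on low counts (0.0513) and without any of 7 single libraries (0.0519 to 0.109).

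Members of a class did not always share a profile over the 12 libraries. The Pearson correlation of log2(CPM + 1) of a gene with the rest of its class was 0.944 for Kdr, 0.918 for Tie1 and 0.896 for Cldn5, but 0.587 for Ramp2 and 0.531 for Emcn. Among alveolar epithelial genes it was 0.964 for Sftpb, 0.915 for Sftpc and 0.753 for Sftpa1, but 0.428 for Sftpd and 0.406 for Hopx. Among immune genes it was 0.806 for S100a8, 0.271 for Lyz2, 0.182 for Cd68 and -0.529 for C1qb. The libraries share their scaling and stage, and these values describe without a test.

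Further genes of the same cell types were listed beside the 38, and their counts stand against the 13.1% of all genes that rose and 12% that fell at P3, and the 8.79% and 9.5% at P10, all against E17.5 in comparisons that share its libraries. Of 20 further endothelial genes, 3 of 20 tested rose and 1 fell at P3, and 4 of 20 tested rose and 1 fell at P10; the highest was Eng, a TGF-beta co-receptor also present on stromal cells, with 135 ± 15.6 CPM at P3 against 61.7 ± 15.0 CPM at E17.5 (log2 fold change 1.13, SE 0.19, adjusted p = 0.00204). The next was Tmem100, a membrane protein of endothelium (log2 fold change 1.94, SE 0.28, adjusted p = 0.000786). Of the 20 estimates of this list at P3, 13 were positive and 7 negative. Of 5 lymphatic genes, 1 of 4 tested rose and 1 fell at P3, and the same counts held at P10; Prox1, the lymphatic transcription factor, fell at P3 (log2 fold change -2.89, SE 0.44, adjusted p = 0.00115) while Lyve1 lay between 0.712 and 2.91 CPM.

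Of 20 further alveolar epithelial genes, 4 of 18 tested rose and 2 fell at P3. At P10, 1 of 18 tested rose and 3 fell. The estimates at P3 were positive for 10 of the 18 and negative for 8, and the 2 genes named next were taken for their high level. Etv5, a transcription factor of type II cells, rose at P3 (log2 fold change 1.55, SE 0.15, adjusted p = 7.71e-05), as did Lpcat1, a surfactant lipid enzyme (log2 fold change 0.92, SE 0.22, adjusted p = 0.0119). Of 15 further airway genes, 0 of 9 tested rose and 2 fell at P3, and 1 of 9 tested rose and 1 fell at P10. The highest of these, Cbr2 and Scgb3a2, a second secretoglobin, did not pass, and Scgb3a2 had 0.237 CPM in P10 replicate 1 where replicates 2 and 3 had 11.1 and 20.1 CPM. The low value of that library thus held for a secretoglobin outside the 38 too.

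Of 22 further immune genes, 2 of 8 tested rose and 1 fell at P3, and 2 of 8 tested rose and 0 fell at P10. Cd14, a monocyte receptor, fell at P3 (log2 fold change -2.78, SE 0.73, adjusted p = 0.0183) and Cd79a, a B cell receptor chain, rose (log2 fold change 1.64, SE 0.45, adjusted p = 0.0220). Of 12 further erythroid genes Hba-a2 was the 1 tested. Of 5 platelet genes 4 were tested and 0 passed, with the integrin gene Itga2b between 1.84 and 2.98 CPM and Gp9 between 0.513 and 2.04 CPM. Of 7 further mesothelial genes, 0 of 2 tested rose and 2 fell at P3, namely Krt19, a keratin also found in other epithelia (log2 fold change -1.87, SE 0.55, adjusted p = 0.0301), and Rspo1, a secreted Wnt enhancer (log2 fold change -4.90, SE 0.71, adjusted p = 0.000839). Blood and pleura genes thus held few that could be tested.

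Genes of cell types outside the 38 were mostly too low to test. Of 6 glial and neuronal genes, 1 was tested: S100b, a calcium-binding protein, rose at P10 against E17.5 (log2 fold change 2.23, SE 0.26, adjusted p = 0.000210). Of 6 cardiac muscle genes 3 were tested and 0 passed; Myl4 lay between 1.07 and 6.77 CPM and Tnni3 between 0 and 2.85 CPM. Of 5 cartilage genes only Col2a1 was tested: this cartilage collagen rose at P3 against E17.5 (log2 fold change 2.25, SE 0.40, adjusted p = 0.00238) and fell at P10 against P7 (log2 fold change -1.83, SE 0.39, adjusted p = 0.0351), while Col9a1 stayed at or below 0.473 CPM. Among the 12 mesenchymal genes the highest were Col3a1, with 3929.6 ± 216 CPM at P10 and 1628 ± 256 CPM at E17.5, and Tgfbi, with 1343 ± 395 CPM at P10 and 1395 ± 464 CPM at E17.5.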

How the data were processed

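Sorted mouse lung cells gave RNA for stranded sequencing libraries, prepared by a total RNA kit for low input, per the labels' protocols; the molecule label names polyadenylated RNA. The values are estimated counts per gene that the authors deposited as scaled counts, in whole numbers. The genome build was GRCm38, per the submitters' processing notes; aligner, quantifier, annotation and scaling method: not given in the sources used here. Genes were filtered with edgeR's filterByExpr by stage, scaled by TMM and tested in R 4.3.3 (edgeR 4.0.16, limma 3.58.1) by edgeR's quasi-likelihood test, with 1 model over 12 libraries with robust fitting, Benjamini-Hochberg adjusted over 16827 genes at 0.05; an adjusted p with no tool beside it is edgeR's. SE is the fold change divided by the root of F. The common dispersion was 0.145 and the median prior df 2.61. Stages were assigned from the titles. Alternatives were DESeq2 1.42.0, limma-voom, other scalings, no filter, a replicate block, the 6 libraries compared, and each library left out. The test was tried on simulated data with known changes first. There it recovered 23.4% to 25.3% of 2-fold and 58.9% to 69.5% of 4-fold changes in the 4 comparisons. A gene that did not pass can therefore still have changed.

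The 38 members and the further lists were chosen with earlier results of these data known. Genes named with values in each library were the highest of each class and each gene called in a comparison, with Pecam1, Cdh5, Ager and Foxj1 added after their values were seen. From each further list the 2 genes with the highest mean CPM were named, except for some that are not reported here. Positions are from GENCODE release M21 (GRCm38), promoters from RefSeq (GRCm38.p6), which held 24 of the 38. Genes of the further lists without a row of that symbol were not analysed here. Depth, from 13328623 to 18740591 summed estimated counts, limits low genes most.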

Additional observations from a re-analysis of the deposited data

How the results depend on the processing

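Of 293 fold changes of markers recomputed under alternatives other than leaving out a library, 259 kept their direction and side of the threshold. Of 444 with 1 library left out, 383 did. Counts of markers and of genes are not in these totals and follow below, where many moved. Why the others changed was not tested. Depth limits the genes with few estimated counts, such as Msln, Ptprc and Sftpd, and 3 libraries a stage limit every call.

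In P3 vs E17.5, where 5 markers rose and 4 fell, limma-voom gave 2 higher and library totals 1 lower. Over all genes, where 2201 rose and 2024 fell, library totals gave 1059 higher and 440 lower, and the 6 libraries compared gave 1252 lower. In P7 vs P3, where 0 genes rose and 1 fell, DESeq2 gave 292 and 438, limma-voom 9 and 9, library totals 2 and 4, and the 6 libraries 4 and 5; leaving out rows over 1% of a library, and no filter, each gave 3 lower. In P10 vs P7, DESeq2 gave 1 marker higher, and the single lower marker became 0 under library totals, no filter, DESeq2, limma-voom and the 6 libraries. Over all genes, where 235 rose and 378 fell, library totals gave 2 and 5, no filter 94 and 213, DESeq2 848 and 993, and limma-voom 361 higher. In P10 vs E17.5, where 6 markers rose and 6 fell, limma-voom and the 6 libraries each gave 3 higher and library totals 2 lower. Over all genes, where 1479 rose and 1598 fell, library totals gave 430 lower and the 6 libraries 830 higher and 857 lower. Across the stages, where 14 markers differed, library totals and limma-voom each gave 9. Library totals moved the median log2 fold change of all genes to 0.11 in P3 vs E17.5, 0.30 in P7 vs P3 and 0.50 in P10 vs E17.5.

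With 1 library left out, markers higher and lower numbered 3 to 7 and 2 to 4 in P3 vs E17.5, 0 and 0 in P7 vs P3, 0 to 2 and 0 to 1 in P10 vs P7, and 5 to 12 and 3 to 6 in P10 vs E17.5; 9 to 20 differed across stages. Genes higher and lower numbered 1627 to 2379 and 1261 to 1926 in P3 vs E17.5, 0 to 37 and 0 to 36 in P7 vs P3, 6 to 259 and 16 to 531 in P10 vs P7, and 1009 to 1492 and 1007 to 1621 in P10 vs E17.5. The log2 fold change of Ramp2 lay between -0.047 and 0.39 at P3 and between -0.0020 and 0.41 at P10, and that of Sftpc between -0.35 and 0.45 at P10; limma-voom gave Sftpc -0.13.

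The labels do not say whether replicate numbers pair the libraries. Deviations of same-numbered libraries of different stages correlated between -0.27 and 0.19 over 18 pairs, and those of other numbers between -0.27 and 0.31 over 36. Deviations from a mean of 3 libraries depend on each other, so these values cannot decide it. With the replicate number as a block, 4 markers rose and 4 fell in P3 vs E17.5, 0 fell in P10 vs P7, 6 rose and 6 fell in P10 vs E17.5, and 12 differed across stages. Over all genes the block gave 0 lower in P7 vs P3 and 95 higher and 215 lower in P10 vs P7. Sftpc in P10 vs E17.5 became -0.032 with the block.

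The mean summed level at P10 without P10 replicate 1, an alternative chosen after seeing the data, was 108.7 CPM for endothelial markers, 173 CPM for alveolar epithelial, 212 CPM for airway epithelial, 25.6 CPM for immune, 23.3 CPM for erythroid and 0.134 CPM for mesothelial markers.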

Other observations

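Ratios between markers also varied between libraries and are given as values. Scgb1a1 of club cells stood, relative to Sftpc of type II cells, at 0.0383, 0.00540 and 0.0159 at E17.5, 0.0977, 0.226 and 0.308 at P3, 0.277, 0.481 and 0.620 at P7 and 0.206, 0.595 and 1.01 at P10. Hbb-bs stood, relative to Hba-a1, at 2.48, 2.25 and 1.63 at E17.5, 1.31, 1.68 and 2.19 at P3, 2.28, 1.12 and 2.57 at P7 and 2.40, 2.12 and 2.36 at P10. The first ratio was lowest in the 3 E17.5 libraries, and the second overlapped between stages.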
